A study of Homo sapiens with 12 samples.

Results

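The 10 genes described here encode relatives of BCL2 that set the threshold of the mitochondrial route of programmed cell death: PMAIP1, BCL2L11, BIK, BBC3, BID and BMF (BH3-only proteins), BCL2L1 and MCL1 (guardians), and BAX and BAK1 (effectors). They were chosen by symbol, with earlier results of these data known, and all 10 were found among the 56104 gene rows of both count tables. The cells were HCT116, a human colorectal carcinoma line at a passage number under 15. PPM1G knockout cells (KO) were compared with cells whose genotype is given as Ctrl; PPM1G encodes a nuclear serine/threonine phosphatase. How the gene was edited, and whether the KO cells descend from 1 clone, is not stated by the labels, and neither is what the Ctrl cells, titled Ctrl_KO, carry. Each genotype was measured in 3 libraries by 4sU-seq, which captures RNA made during a 10 min pulse of 500 µM 4-thiouridine (4sU), and in 3 libraries by RNA-seq, which measures steady-state RNA. ERCC spike-in RNA was added to all 12 libraries. The labels speak of biological replicates for 4sU-seq only, so the RNA-seq p-values measure the spread between those libraries, which may be technical.

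In healthy cells the guardians BCL-XL (from BCL2L1) and MCL1 bind and restrain BAX and BAK, the proteins that form pores in the outer mitochondrial membrane. BH3-only proteins are made or activated under stress: NOXA (PMAIP1) binds mainly MCL1, while BIM (BCL2L11), PUMA (BBC3) and the cleaved form of BID bind all guardians and can also activate BAX and BAK directly. Their shared feature is the BH3 helix, which sits in a groove of the guardian and carries a leucine and an aspartate that most of these contacts need. Many of the genes are regulated by transcription, PMAIP1 and BBC3 among them as p53 targets, and HCT116 cells carry p53 that works.

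The coding sequence of the BH3 core is given for each of the 10 genes. A search of each gene's principal GENCODE 29 transcript for leucine, 3 residues of any kind, glycine or alanine, and aspartate found exactly 1 match in each. Over all protein-coding genes, 24.7% of 19656 hold at least 1 such match, and 18.8% hold exactly 1. A match is therefore a description and does not by itself set the 10 genes apart. The stretches below are 45 coding bases each, 5′ to 3′, with the codons of the leucine, the glycine or alanine, and the aspartate in capitals.
PMAIP1: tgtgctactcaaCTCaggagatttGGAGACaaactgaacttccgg
BIK: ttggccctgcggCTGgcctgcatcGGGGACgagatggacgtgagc
BMF: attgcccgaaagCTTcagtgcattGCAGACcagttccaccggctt
BCL2L11: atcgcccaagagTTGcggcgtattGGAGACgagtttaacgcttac
BBC3: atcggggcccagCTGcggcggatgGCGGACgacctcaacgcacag
BID: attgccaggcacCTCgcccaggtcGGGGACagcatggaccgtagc
BCL2L1: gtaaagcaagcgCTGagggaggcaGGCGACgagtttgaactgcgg
MCL1: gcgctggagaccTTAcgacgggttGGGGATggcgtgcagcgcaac
BAX: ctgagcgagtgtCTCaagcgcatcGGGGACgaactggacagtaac
BAK1: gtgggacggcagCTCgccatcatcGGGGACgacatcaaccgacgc
BBC3 and BMF carry the alanine codon and the other genes the glycine codon. The pair most alike was BIK and BAK1, with 30 of 45 bases identical, and the median over the 45 pairs was 20. The genes lie on 8 chromosomes, with the pairs BBC3 and BAX on chromosome 19 and BIK and BID on chromosome 22 (hg38, GENCODE 29). The spans ran from 4.4 kb for PMAIP1 (ENSG00000141682, plus strand, 59899948 to 59904306 on chromosome 18) to 59.5 kb for BCL2L1 (ENSG00000171552, minus strand, 31664452 to 31723989 on chromosome 20).

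The libraries held 79.4M to 101.9M gene counts in 4sU-seq and 31.0M to 42.5M in RNA-seq, so that 3 counts, the floor used here, stand for at most 0.038 and 0.097 CPM (TMM-normalised counts scaled to a common library total). Floors cover counting error only. PPM1G itself was lower in KO cells, at 98.9, 144 and 104 CPM in the KO libraries of 4sU-seq, against 242, 271 and 235 CPM in Ctrl, and in RNA-seq at 97.9, 95.0 and 98.0 CPM, against 326, 293 and 331 CPM (log2 −1.11 ± 0.17, adjusted p = 0.00717, and −1.71 ± 0.06, adjusted p = 1.77e-10, by edgeR); the 4sU-seq call was lost under ERCC scaling (−0.93, adjusted p = 0.196). Markers of epithelium, the labelled cell type, summed to 1294 to 2208 CPM in KO and 1409 to 1736 CPM in Ctrl in 4sU-seq, and to 2734 to 2848 CPM in KO and 2907 to 3311 CPM in Ctrl in RNA-seq, where 2 of the 7 were called higher and 3 lower. Markers of blood cells summed to at most 0.328 CPM in any library. Those of fibroblasts summed to 9.72 to 13.7 CPM in KO and 5.00 to 5.94 CPM in Ctrl in 4sU-seq, nearly all from COL1A1, with LUM at 0. In RNA-seq they summed to 9.76 to 11.1 CPM in KO and 4.28 to 6.28 CPM in Ctrl. Those of endothelium summed to 12.6 to 12.8 CPM in KO and 5.85 to 6.55 CPM in Ctrl in 4sU-seq, where all 3 were called higher. In RNA-seq the endothelial sums were only 0.498 to 0.683 CPM in KO and 0.162 to 0.418 CPM in Ctrl. The part of these genes in the results below was not tested. In bulk RNA, fewer cells of a type and less RNA per cell cannot be told apart. KO replicate 2 of 4sU-seq stood apart from the other KO libraries: its counts differed from theirs by a chi-square of 380 and 502 per degree of freedom, where KO replicates 1 and 3 differed by 39.2. Without it 11673 genes were called in 4sU-seq in place of 4166, so the 4sU-seq result of each of the 10 genes that could be tested is also given without it. The deviations of KO replicate 2 from its group mean went with those of Ctrl replicate 2 (correlation of 0.88), which these fits keep. KO replicates 1 and 2 of RNA-seq differed by only 2.02 per degree of freedom, where the other pairs within a genotype stood at 14.4 to 25.9; that is still above sampling noise, and they were counted separately.

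Steady-state levels were first set in order, per kilobase of exon in RNA-seq. MCL1 was highest in both genotypes, at 42.0 ± 1.01 CPM per kb in KO and 53.9 ± 4.66 CPM per kb in Ctrl (SD, n = 3 each). BCL2L1 followed in Ctrl with 45.1 ± 1.97 CPM per kb, then PMAIP1 with 22.2 ± 4.48, BAX with 20.1 ± 1.28, BIK with 19.3 ± 1.10 and BID with 17.9 ± 0.948. In that run of 4 genes each neighbour overlapped the next. In KO cells PMAIP1, at 35.4 ± 2.19 CPM per kb, stood between MCL1 and BCL2L1 (31.0 ± 1.28), and overlapped neither. Of BCL2L1's exon bases 43.0% lie in exons of other genes, against 0.0% for PMAIP1 and MCL1. How reads from shared bases were counted is not given. BCL2L1 may thus be understated per kilobase, and its place in the order of either genotype is uncertain. BIK, at 10.1 ± 0.586 CPM per kb in KO cells, stood below BAK1 and BID, which overlapped each other at 17.0 ± 0.279 and 16.7 ± 0.580. The bottom of the order was the same in both genotypes: BCL2L11 at 5.38 ± 0.0482 CPM per kb in KO and 6.15 ± 0.116 in Ctrl, BBC3 at 4.73 ± 0.234 and 3.13 ± 0.267, and BMF at 0.112 ± 0.0196 and 0.0814 ± 0.00959. These are RNA levels, and protein was not measured. Since reads of newly made RNA also come from introns, 4sU-seq levels were not compared between genes.

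**Figure D1:**
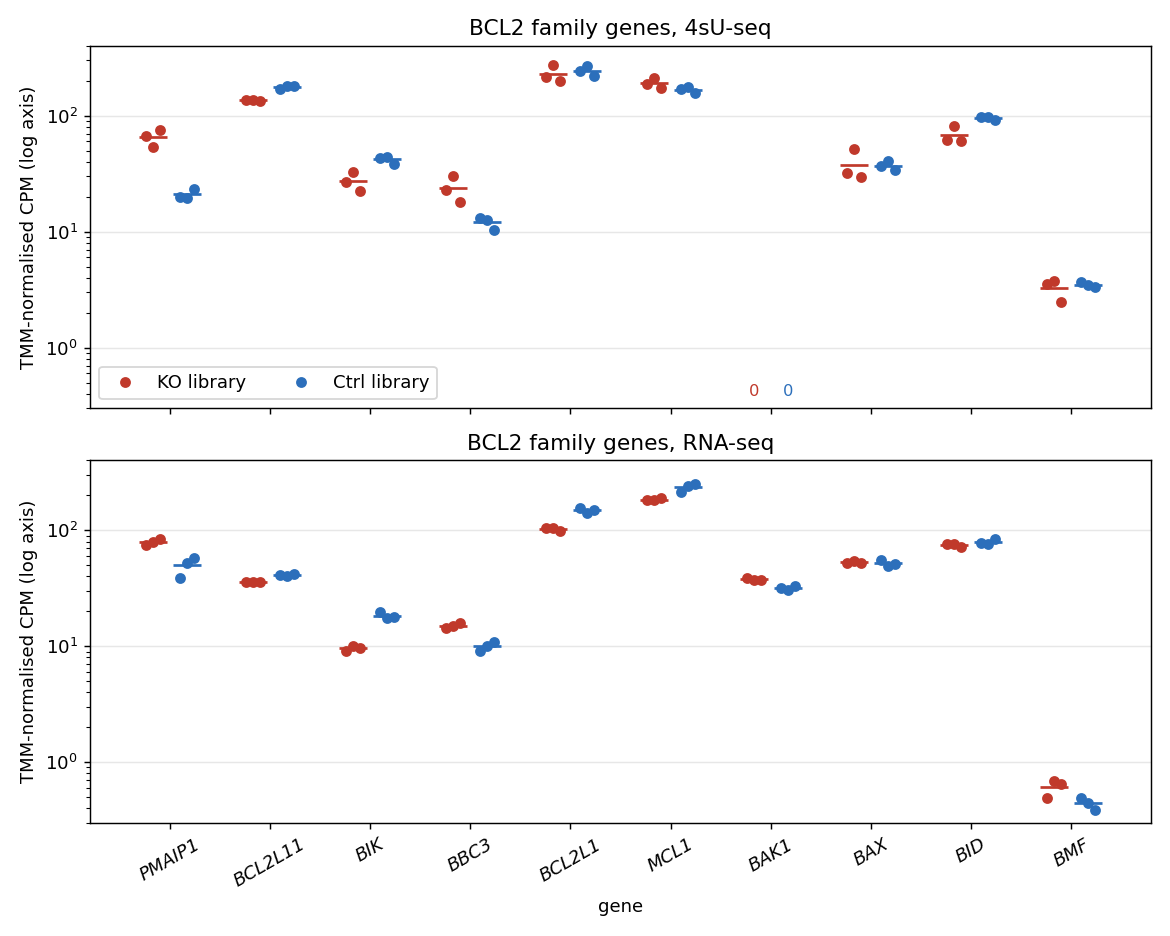
Normalised CPM of the 10 genes in each library, on a log axis, with 4sU-seq above and RNA-seq below; points are single libraries (KO red, Ctrl blue), short lines are means of 3 libraries, and the digit 0 marks BAK1, listed at 0 in 4sU-seq. The KO libraries of PMAIP1 (53.4 to 75.6 CPM) lie well above the Ctrl libraries (19.6 to 23.3 CPM) in 4sU-seq, and those of BIK lie below in both assays.

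Which of the genes differed between KO and Ctrl cells was the question put to each assay. Of the 9 genes that passed the filter on low counts in 4sU-seq, PMAIP1 and BBC3 rose, BCL2L11 and BIK fell and 5 were not called at an adjusted p below 0.05, where 19.6% of all 21236 genes tested were called. In RNA-seq all 10 passed the filter; PMAIP1, BBC3 and BAK1 rose, BCL2L11, BIK, BCL2L1 and MCL1 fell and 3 were not called, where 48.4% of all 20415 genes tested were called. By direction, 12.6% of all genes were called higher and 6.98% lower in 4sU-seq, and 21.5% and 26.8% in RNA-seq. The genes' median log2 change was −0.08 in 4sU-seq and −0.04 in RNA-seq, against 0.05 and 0.00 over all genes tested. The KO and Ctrl libraries did not overlap for 5 of the 9 in 4sU-seq, where 38.4% of all genes did not, and for 8 of the 10 in RNA-seq, where 56.1% did not. All changes below are log2 of KO over Ctrl ± the standard error from the F test, with 3 libraries a group, tested by edgeR's quasi-likelihood test with Benjamini-Hochberg adjustment over all genes of that table.

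**Figure D2:**
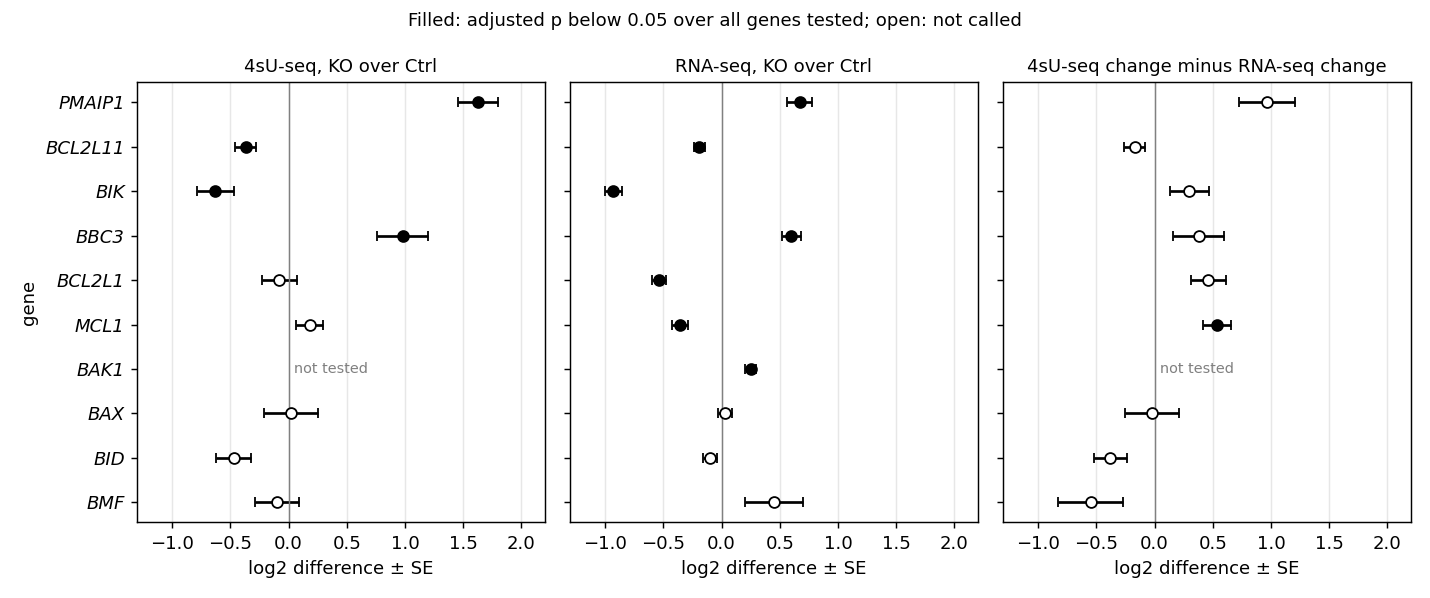
Log2 change of KO over Ctrl in 4sU-seq (left) and RNA-seq (middle) and the difference of these changes, 4sU-seq minus RNA-seq (right), with bars of 1 SE; filled points have an adjusted p below 0.05. PMAIP1 lies farthest to the right in 4sU-seq at 1.63, BIK farthest to the left in RNA-seq at −0.93, and MCL1 is the filled point of the right panel at 0.54.

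Among the sensitizers, BH3-only proteins that act by occupying guardians, the 3 genes took different courses. PMAIP1, which encodes NOXA, had 66.5, 53.4 and 75.6 CPM in the KO libraries of 4sU-seq, against 20.1, 19.6 and 23.3 CPM in the Ctrl libraries. Every KO library was above every Ctrl library, a 3.11-fold rise (log2 1.63 ± 0.17, adjusted p = 0.00192). The call held without KO replicate 2 (1.69, adjusted p = 1.11e-04) and in each of the 6 fits that left out a library, and was lost under ERCC scaling (1.92 ± 0.46, adjusted p = 0.0668). In RNA-seq PMAIP1 had 74.6, 78.6 and 84.3 CPM in KO, against 38.7, 52.2 and 58.2 CPM in Ctrl. The groups again did not overlap, and the rise was 1.60-fold (0.67 ± 0.11, adjusted p = 2.28e-04), called under every alternative.

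BIK, a sensitizer held mostly at the endoplasmic reticulum, went the other way. In RNA-seq it had 9.04, 10.1 and 9.73 CPM in the KO libraries, against 19.6, 17.6 and 18.0 CPM in Ctrl, and fell by 47.7% (log2 −0.93 ± 0.07, adjusted p = 3.38e-07). This was the smallest p among the 10 genes, and the call held under every alternative. In 4sU-seq the KO libraries held 26.9, 32.6 and 22.4 CPM, against 43.5, 44.3 and 38.7 CPM in Ctrl. The groups did not overlap (−0.63 ± 0.16, adjusted p = 0.0422). Without KO replicate 2 the fall was larger (−0.84, adjusted p = 0.00127); without KO replicate 1 or 3 or Ctrl replicate 1, 2 or 3 the call was lost (adjusted p = 0.149, 0.0925, 0.156, 0.153 and 0.0756), as it was under ERCC scaling (−0.46, adjusted p = 0.519) and library size alone (−0.54, adjusted p = 0.0863). BMF, a sensitizer tied to the cytoskeleton, was scarce, at 0.492, 0.693 and 0.653 CPM in the KO libraries of RNA-seq and 0.493, 0.448 and 0.389 CPM in Ctrl, which are 18 to 27 and 12 to 20 counts. The groups overlapped and it was not called (0.45 ± 0.25, adjusted p = 0.164). In 4sU-seq it had 3.54, 3.78 and 2.48 CPM in KO and 3.70, 3.47 and 3.32 CPM in Ctrl, with no call (−0.10 ± 0.19, adjusted p = 0.761; −0.28 without KO replicate 2, adjusted p = 0.177).

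The 3 activators, which can bind BAX and BAK directly, also differed among themselves. BBC3, which encodes PUMA, had 22.8, 30.5 and 18.0 CPM in the KO libraries of 4sU-seq, against 13.1, 12.6 and 10.4 CPM in Ctrl. It rose 1.97-fold with no overlap (log2 0.98 ± 0.22, adjusted p = 0.0252). KO replicate 2 was the highest of these libraries; without it the rise was 0.69 (adjusted p = 0.00582), without KO replicate 3 it was 1.15 (adjusted p = 0.0200), and without KO replicate 1 or Ctrl replicate 1, 2 or 3 the call was lost (adjusted p = 0.0848, 0.0937, 0.0927 and 0.105), as under ERCC scaling (adjusted p = 0.0622). In RNA-seq BBC3 had 14.3, 15.0 and 15.8 CPM in KO, against 9.08, 10.0 and 10.8 CPM in Ctrl. It rose 1.51-fold there (0.60 ± 0.08, adjusted p = 3.16e-05), called under every alternative, so PMAIP1 and BBC3 both rose in both assays.

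BCL2L11, which encodes BIM, was lower in KO cells by a small amount. It had 136, 137 and 135 CPM in the KO libraries of 4sU-seq, against 169, 179 and 179 CPM in Ctrl, a fall of 22.5% with no overlap (log2 −0.37 ± 0.09, adjusted p = 0.0306). The call held without KO replicate 2 (−0.44, adjusted p = 0.00375) and was lost without KO replicate 1 or 3 or Ctrl replicate 1, 2 or 3 (adjusted p = 0.123, 0.0803, 0.115, 0.152 and 0.0997) and under ERCC scaling (−0.13, adjusted p = 0.921) and library size alone (−0.28, adjusted p = 0.0831). In RNA-seq it had 35.5, 35.9 and 36.1 CPM in KO, against 41.0, 40.1 and 41.7 CPM in Ctrl (−0.19 ± 0.05, adjusted p = 0.00685). That call was lost without Ctrl replicate 3 (−0.15, adjusted p = 0.0529), with no filter on low counts (−0.17, adjusted p = 0.0660), with all 12 libraries in 1 fit (−0.17, adjusted p = 0.0817), under ERCC scaling (−0.11, adjusted p = 0.450) and under library size alone (−0.01, adjusted p = 0.906), a scaling that moved the median of all genes by 0.18. The gene lies wholly inside the span of MIR4435-2HG, a noncoding gene on the other strand, which had 95.6 to 145 CPM in KO and 148 to 164 CPM in Ctrl in 4sU-seq. The strand setting of the counting is not given, so reads of these overlapping genes cannot be told apart here.

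BID, whose protein is cut by caspase-8 to link death receptors to mitochondria, had 62.0, 82.3 and 61.0 CPM in the KO libraries of 4sU-seq, against 96.7, 97.0 and 91.3 CPM in Ctrl. The groups did not overlap, yet edgeR did not call the gene with these 6 libraries (log2 −0.47 ± 0.15, adjusted p = 0.0681). It was called lower by DESeq2 (−0.51, adjusted p = 0.0214) and with all 12 libraries in 1 fit (−0.45 ± 0.10, adjusted p = 0.00474). The 12-library fit takes 1 estimate of the gene's spread from both assays, though the assays differ in spread. KO replicate 2 lay nearest to the Ctrl libraries, and BID was called lower without it (−0.70 ± 0.08, adjusted p = 7.90e-04) and without both libraries numbered 2 (−0.65, adjusted p = 0.00103). It was not called when any other library was left out (adjusted p from 0.117 to 0.229). Nor was it under ERCC scaling (−0.30, adjusted p = 0.747) or library size alone (−0.38, adjusted p = 0.149). In RNA-seq the levels were 75.9, 75.7 and 71.4 CPM in KO and 78.4, 76.3 and 84.4 CPM in Ctrl, with no call (−0.10 ± 0.06, adjusted p = 0.187).

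The promoters of the PMAIP1 and BBC3 genes are shown because these were the genes called higher in both assays. The bases are those of the RefSeq promoter table (GRCh38.p14) that lie before the first GENCODE 29 exon, and the capitals mark matches to the motifs searched. PMAIP1 is shown on the plus strand of chr18:59899746-59899947 and BBC3 on the minus strand of chr19:47232767-47232917.
PMAIP1: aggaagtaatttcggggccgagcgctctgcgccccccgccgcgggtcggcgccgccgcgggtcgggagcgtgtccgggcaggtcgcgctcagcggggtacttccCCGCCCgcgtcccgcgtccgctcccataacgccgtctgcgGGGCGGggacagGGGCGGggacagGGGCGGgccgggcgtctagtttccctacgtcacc
BBC3: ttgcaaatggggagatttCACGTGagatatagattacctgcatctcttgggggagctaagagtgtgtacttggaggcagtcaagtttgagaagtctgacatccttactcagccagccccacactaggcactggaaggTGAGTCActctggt
The motifs were a CRE (TGACGTCA), an AP-1 site (TGANTCA), an EGR1 site (GCGNGGGCG), an E-box (CACGTG), a GC box (GGGCGG) and an E2F site (TTTNGCGC), sought on both strands in windows of 250 bases. They were chosen with the results for transcription factor genes known. The PMAIP1 window held 4 GC boxes, a motif present in 42.6% of all 35116 windows. The BBC3 window held 1 E-box and 1 AP-1 site, present in 6.3% and 6.6% of all windows. Of the other genes with a window, BAX had 4 E-boxes and 1 GC box, and BCL2L11 had 1 EGR1 site (8.4% of all windows) and 3 GC boxes, 1 of them overlapping it. BCL2L1 had 1 E2F site (1.5% of all windows). BID, with 5 windows, had 1 E-box in each of 2 and 1 to 4 GC boxes in each of 4, BAK1 had 2 GC boxes and BMF 1. In all 8 of the 10 genes had a window. A match describes letters only.

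Both guardians were called lower in steady-state RNA, and neither was called in newly made RNA. BCL2L1, which encodes BCL-XL and a shorter isoform of opposite effect that gene counts do not separate, had 105, 105 and 97.8 CPM in the KO libraries of RNA-seq, against 155, 142 and 151 CPM in Ctrl. It fell by 31.2% with no overlap (log2 −0.54 ± 0.06, adjusted p = 6.45e-06). In 4sU-seq it had 215, 276 and 201 CPM in KO and 241, 268 and 221 CPM in Ctrl, with overlap and no call (−0.08 ± 0.15, adjusted p = 0.751). Without KO replicate 2, the highest of the KO libraries, it was called lower there (−0.30, adjusted p = 0.0422). It was not called without both libraries numbered 2 (−0.19, adjusted p = 0.131), nor when any other library was left out. Of its span 54.6% lies under the antisense genes AL117381.1 and ABALON; ABALON had 8.16 to 8.74 CPM in KO and 8.31 to 9.40 CPM in Ctrl in RNA-seq, and both were listed at 0 in 4sU-seq.

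MCL1, the guardian with the shortest-lived protein and messenger, had 181, 182 and 189 CPM in the KO libraries of RNA-seq, against 213, 242 and 252 CPM in Ctrl. It fell by 22.0% with no overlap (log2 −0.36 ± 0.07, adjusted p = 4.72e-04), and both guardians' falls were called under every alternative. In 4sU-seq MCL1 had 188, 213 and 172 CPM in KO and 169, 178 and 157 CPM in Ctrl. There the groups overlapped, and the value lay above 0 (0.18 ± 0.12, adjusted p = 0.317; 0.03 without KO replicate 2).

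The effectors moved little. BAX had 52.1, 54.5 and 52.4 CPM in the KO libraries of RNA-seq and 55.4, 48.8 and 51.7 CPM in Ctrl, which overlapped (log2 0.03 ± 0.06, adjusted p = 0.723). Under library size alone BAX was called higher (0.21, adjusted p = 0.0128). In 4sU-seq it had 31.8, 51.6 and 29.7 CPM in KO and 36.6, 41.0 and 33.8 CPM in Ctrl (0.02 ± 0.23, adjusted p = 0.961). Here KO replicate 2 was above every Ctrl library and the other KO libraries were below them all. Without it BAX was called lower (−0.34 ± 0.11, adjusted p = 0.0339), and without both libraries numbered 2 it was not called (−0.23, adjusted p = 0.0991). The sign also turned without Ctrl replicate 3 (−0.11) and, with all libraries kept, under DESeq2's size factors (−0.02).

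BAK1 had 38.4, 37.3 and 37.3 CPM in the KO libraries of RNA-seq, against 31.5, 30.8 and 33.1 CPM in Ctrl. It rose 1.19-fold with no overlap (log2 0.25 ± 0.05, adjusted p = 0.00204), under every alternative that could be run. In 4sU-seq the gene was listed at 0 in all 6 libraries and could not be tested. BAK1 (minus strand, 33572547 to 33580293 on chromosome 6) lies wholly inside the span of GGNBP1 on the other strand, which had 10.4 to 12.5 CPM in KO and 11.2 to 12.2 CPM in Ctrl in 4sU-seq, and 0.355 to 0.435 CPM in KO and 0.292 to 0.345 CPM in Ctrl in RNA-seq. It was not alone in this: of protein-coding genes with a mean RNA-seq count of at least 1000, 211 were listed at 0 in all 4sU-seq libraries and 94.8% of them lay wholly inside other gene spans, against 0.6% of the other 6566. Whether both tables were counted over the same features is not given, so this 0 cannot be read as an absence of newly made BAK1 RNA.

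**Figure D3:**
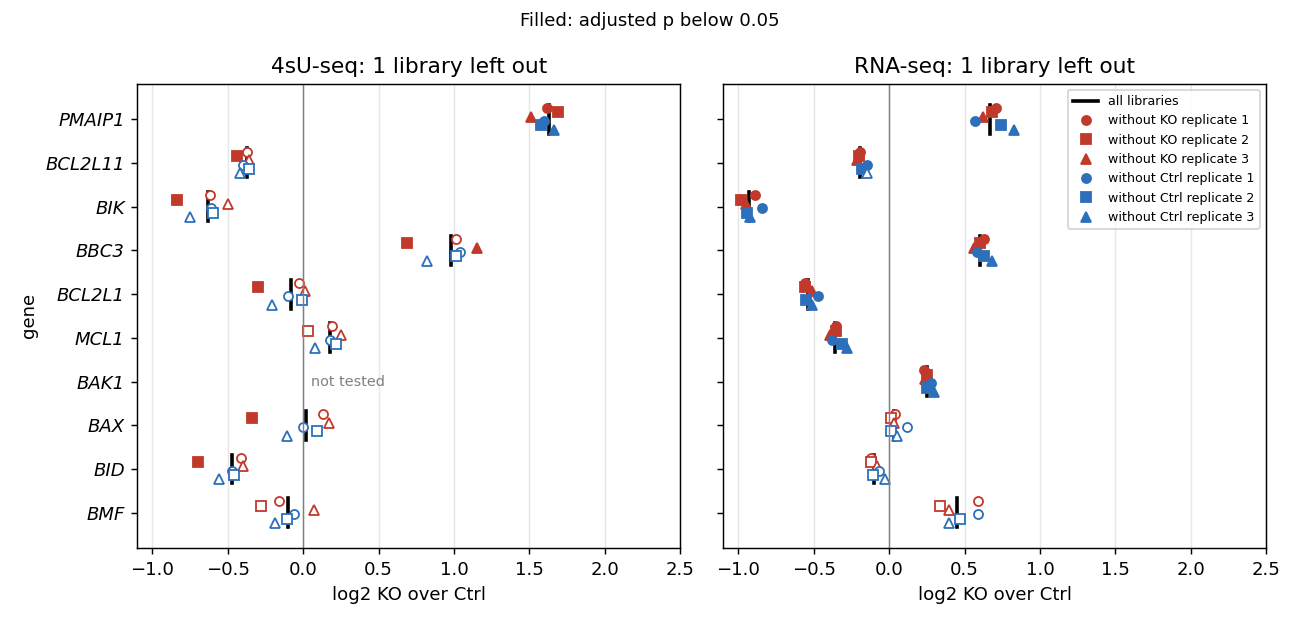
Log2 change of KO over Ctrl of each gene in 4sU-seq (left) and RNA-seq (right) when 1 library is left out (red for a KO library, blue for a Ctrl library); filled points have an adjusted p below 0.05 and the black bar is the value with all libraries. In 4sU-seq the red squares, without KO replicate 2, lie apart, at −0.34 for BAX and −0.70 for BID, and PMAIP1 is filled throughout, between 1.51 and 1.69.

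The difference between assays asks whether the KO effect on newly made RNA differs from that on steady-state RNA. Genotype by assay was the tested term, with 12 libraries in the fit. The fit takes 1 estimate of each gene's spread from both assays, though the assays differ in spread. Fitted apart, MCL1 had a standard error of 0.12 in 4sU-seq and 0.07 in RNA-seq. Of the 9 genes that could be tested only MCL1 was called, with a 4sU-seq change that lay above its RNA-seq change by 0.54 ± 0.12 on the log2 scale (adjusted p = 0.0482); 2.50% of all 15863 genes were called, 1.25% with a higher and 1.25% with a lower change in 4sU-seq. The median of the 9 was 0.30, against 0.03 over all genes. MCL1's call was near the threshold. It held without 4sU-seq KO replicate 2 (0.49, adjusted p = 0.00745) or KO replicate 3 (0.61, adjusted p = 0.0326) and was lost when any of the other 10 libraries was left out, with adjusted p from 0.0568 without RNA-seq Ctrl replicate 1 to 0.142 without RNA-seq KO replicate 2, and the value between 0.47 and 0.59. PMAIP1 had the largest value of the 9, at 0.97 ± 0.24, and was not called (adjusted p = 0.0625), nor was BCL2L1 at 0.46 ± 0.15 (adjusted p = 0.146). Without 4sU-seq KO replicate 2 both were called (1.12, adjusted p = 0.00172, and 0.34, adjusted p = 0.0400), as was BID (−0.49, adjusted p = 0.00383), and without RNA-seq Ctrl replicate 1 so was PMAIP1 (1.09, adjusted p = 0.0488). DESeq2 with all libraries also called PMAIP1 (0.96, adjusted p = 0.00471). In all, PMAIP1 was called in 2 of the 12 fits that left out a library (adjusted p up to 0.172) and in 2 of 8 other settings. BCL2L1 was called in 1 of the 12 and 1 of the 8, and BID in 1 and 0. BBC3 (0.38 ± 0.22), BIK (0.30 ± 0.17), BAX (−0.02 ± 0.23), BCL2L11 (−0.17 ± 0.09) and BMF (−0.55 ± 0.28) were not called under any of these fits.

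The ratio of newly made to steady-state CPM also differed between the genes. Reads from introns can enter it too, so the order of the genes is only described. Its log2 was −0.49 in KO and −0.48 in Ctrl for BAX, −0.28 in KO and −1.24 in Ctrl for PMAIP1, −0.12 in KO and 0.25 in Ctrl for BID, and 0.05 in KO and −0.49 in Ctrl for MCL1. BAX was lowest in KO cells and PMAIP1 in Ctrl cells. The ratio was highest in both genotypes for BMF (2.42 in KO and 2.98 in Ctrl), followed by BCL2L11 (1.93 in KO and 2.1 in Ctrl). That of BMF rests on 18 to 27 RNA-seq counts per library in KO and 12 to 20 in Ctrl. The counting feature is not given, and the part of gene length in these ratios was not tested.

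Since BH3-only proteins, effectors and guardians bind each other, the ratio of a pair of genes within a library was also taken, which no scaling of libraries changes. The ratios are given as a description, with no test. In RNA-seq the log2 ratio of PMAIP1 to MCL1 was −1.28, −1.21 and −1.16 in the KO libraries, against −2.46, −2.22 and −2.11 in Ctrl. The ratio of BBC3 to MCL1 was −3.66, −3.59 and −3.58 in KO, against −4.55, −4.59 and −4.55 in Ctrl, and that of BAX to BCL2L1 −1.01, −0.95 and −0.90, against −1.49, −1.54 and −1.54. The KO minus Ctrl difference of the mean ratios in RNA-seq ran from −0.39 for BIK over BCL2L1, and 0.18 for MCL1 over BCL2L1, to 1.05 for PMAIP1 over MCL1. Every pair has BCL2L1 or MCL1 below the line, and both were lower in KO cells in RNA-seq, so the ratios in part repeat those falls. In 4sU-seq PMAIP1 to MCL1 was higher in KO by 1.44 (−1.50, −1.99 and −1.18 in KO, against −3.07, −3.18 and −2.76 in Ctrl) and BBC3 to MCL1 by 0.77, while BIK to BCL2L1 differed by −0.55. BID to BCL2L1 went in opposite directions in the assays, at −1.75 ± 0.04 in KO and −1.35 ± 0.10 in Ctrl in 4sU-seq and at −0.47 ± 0.01 in KO and −0.91 ± 0.07 in Ctrl in RNA-seq (SD, n = 3 each). The pairs share genes and are not independent of each other.

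**Figure D4:**
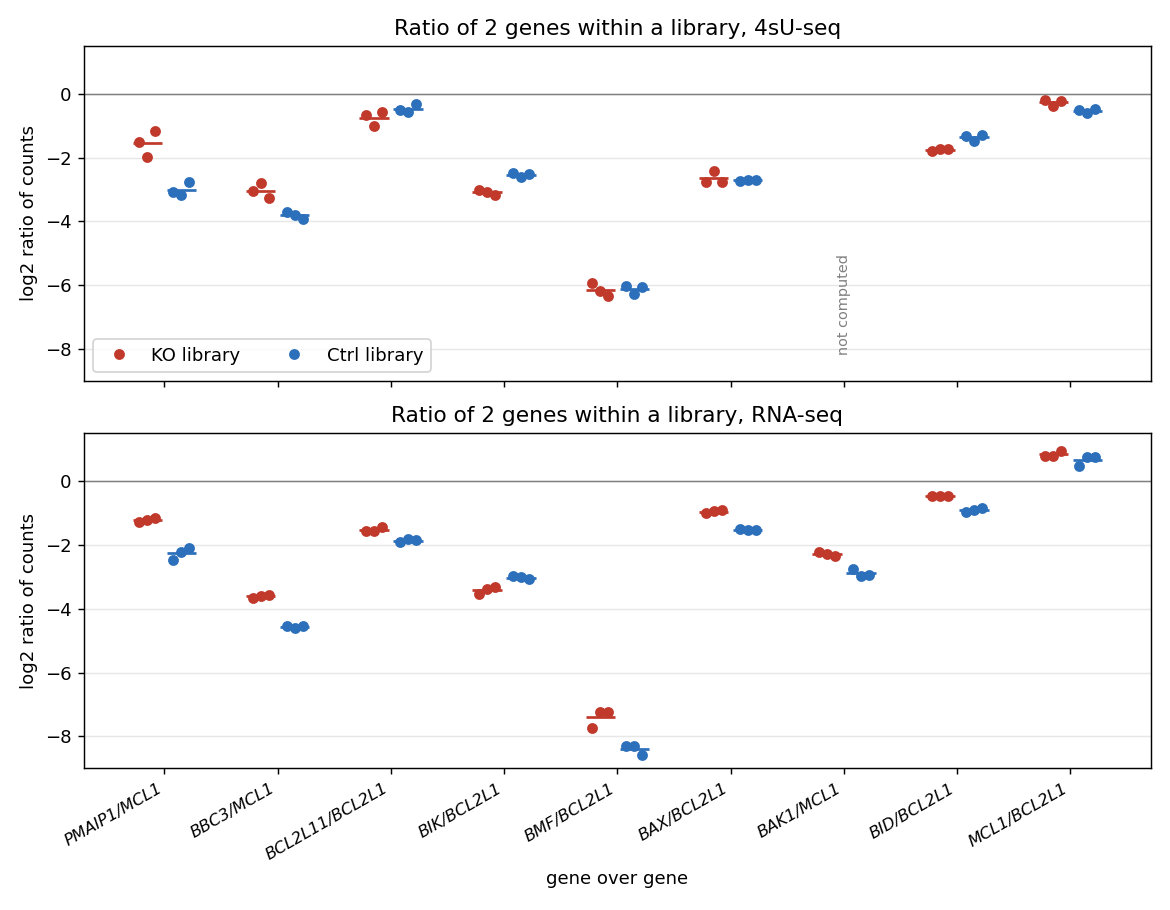
Log2 ratio of the counts of a pair of genes within each library, in 4sU-seq (above) and RNA-seq (below); points are libraries (KO red, Ctrl blue) and short lines are means of 3. In RNA-seq the KO ratios lie above the Ctrl ratios for every pair except BIK over BCL2L1, where they lie below.

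For BIK, the gene with the smallest RNA-seq p, the genes whose log2 CPM moved most like it over the 12 libraries, each centred within its assay, were sought among 10516 genes. BAG3, a chaperone partner that stabilises guardian proteins, was nearest with a root mean square distance of 0.05, followed by CPLX1 and ZNF416 at 0.07 each. BAG3 changed by −0.59 ± 0.18 in 4sU-seq (adjusted p = 0.0623) and by −0.90 ± 0.07 in RNA-seq (adjusted p = 3.10e-07). The likeness was found by search and has no test.

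Other genes of the pathway were counted by list. The shares to set beside each list, here and below, are those over all genes tested. In 4sU-seq 12.6% were called higher and 6.98% lower, and in RNA-seq 21.5% and 26.8%. Of the 13 other BCL2 relatives, 10 were tested in 4sU-seq, of which 1 rose and 0 fell, and 11 in RNA-seq, of which 5 rose and 2 fell, with medians of 0.10 and 0.16. BNIP3L, a mitophagy receptor, rose in both assays, to 42.3, 35.1 and 42.1 CPM in KO, against 15.2, 13.3 and 14.9 CPM in Ctrl, in 4sU-seq (1.46 ± 0.13, adjusted p = 0.00148) and by 1.10 ± 0.07 in RNA-seq (adjusted p = 6.53e-08); its call in 4sU-seq was lost under ERCC scaling (adjusted p = 0.0680). Its relative BNIP3 (0.33 ± 0.06) and BCL2L14 (1.34 ± 0.29, at 0.844 CPM in KO and 0.334 CPM in Ctrl on average) rose in RNA-seq, and BCL2L12 fell (−0.28 ± 0.05; −0.10 and not called under library size alone). A list of 11 genes held those of the apoptosome, effector caspases, the apoptotic nuclease and its inhibitor, and mitochondrial channels. Of these 11, 0 rose in either assay, 3 fell in 4sU-seq and 5 in RNA-seq, with medians of −0.34 and −0.08. DFFA, the inhibitor of the apoptotic nuclease, fell by −0.64 ± 0.07 in RNA-seq (adjusted p = 3.50e-06), as did the mitochondrial channel genes VDAC1 (−0.40 ± 0.06) and VDAC2 (−0.36 ± 0.06). The 3 calls in 4sU-seq, of DFFA, VDAC2 and VDAC3, were lost when any library but KO replicate 2 was left out (adjusted p from 0.0765 to 0.180).

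Of 9 inhibitors of apoptosis and their antagonists, 7 were tested in each assay; 2 rose and 0 fell in 4sU-seq and 3 rose and 2 fell in RNA-seq (medians 0.12 and 0.17). BIRC3, an NF-kB target, rose in both, by 2.23 ± 0.36 in 4sU-seq (adjusted p = 0.00929; 0.0559 without Ctrl replicate 1 and 0.0756 under ERCC scaling) and by 1.24 ± 0.14 in RNA-seq (adjusted p = 8.80e-06). BIRC2 rose in RNA-seq (0.50 ± 0.07) and DIABLO, the antagonist released from mitochondria, fell (−0.28 ± 0.08; adjusted p = 0.0539 without Ctrl replicate 3 and 0.0749 without KO replicate 1), and BIRC7 rose in 4sU-seq at a level near the floor (0.313 CPM in KO and 0.0490 CPM in Ctrl on average). BIRC5 fell by −0.15 ± 0.06 in RNA-seq, a call lost without KO replicate 1 or 2 or Ctrl replicate 1 or 3 (adjusted p = 0.165, 0.154, 0.0772 and 0.212). Of 14 death receptor genes, 13 were tested in 4sU-seq, where 4 rose and 0 fell (median 0.05), and 12 in RNA-seq, where 5 rose and 5 fell (median −0.06). CASP10, an initiator caspase, had 9.30, 9.54 and 8.41 CPM in KO, against 1.56, 1.52 and 1.45 CPM in Ctrl, in 4sU-seq and rose by 2.59 in both assays (± 0.13 in 4sU-seq, adjusted p = 1.74e-04, and ± 0.22 in RNA-seq, adjusted p = 6.30e-07). The decoy receptor TNFRSF10C rose by 1.81 ± 0.11 in 4sU-seq and 2.59 ± 0.15 in RNA-seq, the decoy TNFRSF10D by 0.77 ± 0.05 in RNA-seq, and CFLAR, an inhibitor of caspase-8, fell by −0.44 ± 0.06 in RNA-seq. TNFRSF10B (0.33 ± 0.09) and TNFSF10 (1.38 ± 0.38, at 0.257 CPM in KO and 0.0983 CPM in Ctrl) were called higher in 4sU-seq, and both calls were lost when any library but KO replicate 2 was left out (adjusted p from 0.0658 to 0.243). In RNA-seq TNFRSF10B was called lower (−0.17 ± 0.05, adjusted p = 0.0157), a call lost without KO replicate 2 or 3 or Ctrl replicate 1 or 3 (adjusted p from 0.0501 to 0.0788) and turned to 0.01 under library size alone.

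Of 16 transcription factor genes known to act on the BCL2 family, 6 rose and 0 fell in 4sU-seq (median 0.38). In RNA-seq 4 rose and 8 fell (median −0.14). Over all genes tested, 12.6% were called higher and 6.98% lower in 4sU-seq, and 21.5% and 26.8% in RNA-seq. EGR1, FOS and JUN, factors induced within minutes of stimulation, rose in newly made RNA by 3.23 ± 0.14 (adjusted p = 1.35e-04), 2.82 ± 0.24 (adjusted p = 0.00129) and 1.86 ± 0.22 (adjusted p = 0.00330). EGR1 had 90.6, 82.8 and 73.3 CPM in the KO libraries of 4sU-seq, against 8.62, 9.60 and 8.06 CPM in Ctrl, and in RNA-seq it was not called (−0.12 ± 0.08). JUN fell in RNA-seq (−0.87 ± 0.07, adjusted p = 2.92e-07), as did MYC (−0.54 ± 0.06) and NFKB1 (−0.76 ± 0.06). NFKB1's call was lost with all 12 libraries in 1 fit (adjusted p = 0.0592). FOS was also called lower in RNA-seq (−0.28 ± 0.09, adjusted p = 0.0252), a call kept in 2 of the 6 fits that left out a library. FOXO1, a factor that activates BCL2L11 and BBC3, rose in RNA-seq (0.71 ± 0.06) and in 4sU-seq (1.06 ± 0.19, adjusted p = 0.0124). Its 4sU-seq call was kept in 3 of the 6 such fits and lost under ERCC scaling (adjusted p = 0.200). DDIT3, which encodes the stress factor CHOP, rose by 1.24 ± 0.14 in 4sU-seq (adjusted p = 0.00310). In RNA-seq it rose by 0.25 ± 0.08 (adjusted p = 0.0168), a call kept in 4 of the 6 fits that left out a library. Of 10 factors of MCL1, BIM and NOXA protein turnover, 0 were called in 4sU-seq by edgeR (median 0.06), with 1, BAG3, at an unadjusted p below 0.05 and called by DESeq2 (−0.64, adjusted p = 0.0193), and in RNA-seq 1 rose and 6 fell (median −0.27). HUWE1, a ubiquitin ligase of MCL1, fell by −0.43 ± 0.06 (adjusted p = 6.13e-05), DYNLL2, the dynein light chain that binds BMF, by −0.37 ± 0.05 and the ligase subunit BTRC by −0.36 ± 0.06.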

How the data were processed

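The deposited files hold whole-number read counts per gene, 1 table for 4sU-seq and 1 for RNA-seq, with ERCC rows. The authors used FastQC 0.11.2, HISAT2 2.1.0, SAMtools 1.3, featureCounts and the hg38 build, per the submitters' processing notes; of the annotation, the counted feature and the strand setting no label or header speaks. Counts were fitted with edgeR 4.0.16 (R 4.3.3): genes passing filterByExpr with a minimum count of 10, TMM factors without ERCC rows, quasi-likelihood F tests, and Benjamini-Hochberg adjustment over all genes at 0.05. Each assay was fitted alone, with 3 KO and 3 Ctrl libraries, and the difference between assays as an interaction over 12 libraries. Fits over 12 libraries take 1 estimate of each gene's spread from both assays. ERCC rows took 0.023 to 0.056% of each 4sU-seq library's counts, and of each RNA-seq library's 0.475 to 0.581%. Alternatives included DESeq2 1.42.0, other scalings and filters, a replicate block and leaving out each library. The genes, the pathway lists, the motifs and the tests were chosen with earlier results of these data known. For each list and comparison at most 4 called genes with the smallest p were named, with 1 gene not reported here; genes overlapping the 10 were named after their values were seen. Positions are from GENCODE 29, which holds 94.3% of the gene IDs.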

Additional observations from a re-analysis of the deposited data

Results flagged for a closer look

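For 8 of the genes named here the KO effect in 4sU-seq differed from that in RNA-seq by the interaction of genotype and assay (edgeR's quasi-likelihood test, Benjamini-Hochberg adjusted over 15863 genes). The genes outside the BCL2 family were named through calls of this comparison among others, so their number reflects how genes were named. Among the BCL2 family genes this was MCL1 alone, at 0.54 (adjusted p = 0.0482), called in 2 of the 12 fits that left out a library. Of the transcription factors, EGR1 had 3.35 (adjusted p = 7.63e-06), FOS 3.09 (adjusted p = 7.92e-04), JUN 2.72 (adjusted p = 7.92e-04) and DDIT3 0.98 (adjusted p = 0.00683). These 4 were called whichever of the 12 libraries was left out, and DDIT3 was lost under ERCC scaling (adjusted p = 0.820). Of the 16 transcription factor genes 6 were called in all, and over all genes 397. Of the death receptors, TNFRSF10D had −0.72 (adjusted p = 0.00669), called in all 12 such fits and lost under ERCC scaling, TNFRSF10B had 0.50 (adjusted p = 0.0175), called in 5 of the 12, and TNFRSF10C had −0.78 (adjusted p = 0.0498), called in 1 of the 12, that without 4sU-seq KO replicate 2.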

How the results depend on the processing

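In RNA-seq 6 of the 7 calls among the BCL2 family genes held under every alternative, and leaving out 1 library gave 6 to 7 calls. In 4sU-seq the 4 calls became 0 under ERCC scaling and 2 under library size alone, and 1 to 7 when 1 library was left out. In the difference the 1 call became 0 with no filter, with TMM over all 12 libraries, and when scaled by ERCC counts or by library size alone, 2 with DESeq2's Wald test, and 0 to 4 with 1 library left out. Over all genes, the 4166 calls in 4sU-seq became 716 under ERCC scaling, 10893 without both replicates numbered 2, and 1322 to 11673 with 1 library left out. The 9871 in RNA-seq became 4239 with all 12 libraries in 1 fit, and 8145 to 10151 with 1 left out. The 397 in the difference became 7 under ERCC scaling, 190 with no filter, 1087 with DESeq2's Wald test, and 86 to 4364 with 1 left out. The share of calls that were higher in KO, 64.4% in 4sU-seq and 44.6% in RNA-seq, was 93.9% and 61.6% under ERCC scaling and 78.3% and 72.5% under library size alone; in the difference 50.1% became 27.6% under library size alone. Values without a call changed sign for BAX in 4sU-seq (−0.02 with DESeq2's size factors and its Wald test, −0.05 with no filter, −0.23 without both numbered 2, −0.34 to 0.17 with 1 left out), BCL2L1 in 4sU-seq (0.11 under ERCC scaling, 0.01 under library size, −0.30 to 0.01) and BMF in 4sU-seq (0.06 under ERCC scaling, −0.28 to 0.07). BAX in the difference was 0.05 under ERCC scaling and −0.27 to 0.13 with 1 left out, EGR1 in RNA-seq −0.17 to 0.03, and under library size BID, BIRC5, EGR1 and TNFRSF10B in RNA-seq were 0.09, 0.03, 0.06 and 0.01. The causes were not tested.

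Same-numbered KO and Ctrl libraries did not deviate together in every pair (correlations of −0.16, 0.88 and 0.85 in 4sU-seq and −0.062, 0.21 and 0.31 in RNA-seq), so the numbers were not taken as pairs. With a replicate block 5 of the genes were called in 4sU-seq, 7 in RNA-seq and 3 in the difference, 6907 genes in all in 4sU-seq and 657 in the difference, and BAX in 4sU-seq was −0.02. The block added BID in 4sU-seq (−0.49, adjusted p = 0.0244) and PMAIP1 (0.94, adjusted p = 0.0204) and BCL2L1 (0.45, adjusted p = 0.0398) in the difference, by edgeR's quasi-likelihood test.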
